A study of Rattus norvegicus with 2 samples.

Results

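Telomeres are the repeat-bearing ends of chromosomes, and pluripotent stem cells keep them long by running telomerase, the reverse transcriptase that adds new repeats. The shelterin complex coats telomeric repeats, hides them from the DNA damage machinery and controls the access of telomerase. The genes described here are 10 of the 23282 listed in the deposited table, taken by symbol, each with 1 row. Among them, 5 encode shelterin subunits (Terf1, Terf2, Terf2ip, Tinf2 and Acd), 4 encode proteins of the telomerase complex (Tert, Dkc1, Nhp2 and Wrap53), and Rif1 encodes a chromatin protein named for its link to the telomere protein Rap1.

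The samples were 2 libraries of wild-type rat (Rattus norvegicus) embryonic stem cells of the line DA-EC8/Rrrc, from the Dark Agouti strain. Both came from passage 30, with a karyotype labelled normal, and the cells received no treatment beyond growth in 2i medium, which carries inhibitors of MEK and GSK3. Since the study holds 1 line and 1 group, there is no contrast between conditions, and every SD here is the spread of 2 replicates of that line. The series calls them biological replicates and does not say whether they were grown as separate cultures, so this spread may be partly technical. Levels are in RPKM, which are reads per kilobase of gene model, scaled to the size of the library. This puts genes of unlike length on a common scale. Overlapping genes or similar copies elsewhere can still shift the value of a gene, so comparisons between genes are approximate. A gene was counted as detected when its 2 replicates averaged 1 RPKM or more. In bulk RNA, fewer expressing cells and less RNA per cell cannot be told apart.

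The stem cell label was checked against markers. All 7 embryonic stem cell markers exceeded 10 RPKM, against 29.4% of all genes listed. They ran from Esrrb at 70.5 ± 4.95 RPKM (SD, n = 2) to Utf1 at 655 ± 14.1 RPKM. Of 8 fibroblast or feeder markers 3 were detected, against 46.4% of all genes listed. The summed level of these markers was 6.05 and 11.4 RPKM in replicates 1 and 2, with Col1a2, S100a4 and Twist2 at 0. Col1a1 was the highest of these, at 4.70 ± 1.86 RPKM. None of 4 blood cell markers reached 1 RPKM, with a summed level of 1.12 and 1.43 RPKM, Cd68 highest at 0.964 ± 0.182 RPKM and Hbb at 0. Steps in the low values point to 2991184 reads behind replicate 1 and 3050685 behind replicate 2.

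Promoter windows are shown for the highest and the lowest gene of each complex among those with an entry, because these genes span the range of levels given below. The windows are the 250 bases before the annotated start in RefSeq on the GRCr8 build, 5′ to 3′ on the strand of the gene. Capitals mark matches, on either strand, to the E-box CACGTG (bound by Myc and related factors), the GC box GGGCGG, the CCAAT box CCAAT, the ETS element CCGGAAGT and the cAMP response element TGACGTCA. Neighbouring matches can run together, and the motifs were chosen after the sequences had been seen. The windows of Dkc1 (chrX:157751401-157751650, plus strand), Nhp2 (chr10:36377770-36378019, plus strand), Acd (chr19:50499327-50499576, minus strand) and Tinf2 (chr15:33146931-33147180, minus strand) read as follows.
Dkc1: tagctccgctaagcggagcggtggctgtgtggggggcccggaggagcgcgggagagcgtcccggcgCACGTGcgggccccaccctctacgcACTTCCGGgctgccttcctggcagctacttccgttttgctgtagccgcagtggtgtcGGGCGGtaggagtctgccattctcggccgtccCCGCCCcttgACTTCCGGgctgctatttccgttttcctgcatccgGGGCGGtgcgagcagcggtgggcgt
Nhp2: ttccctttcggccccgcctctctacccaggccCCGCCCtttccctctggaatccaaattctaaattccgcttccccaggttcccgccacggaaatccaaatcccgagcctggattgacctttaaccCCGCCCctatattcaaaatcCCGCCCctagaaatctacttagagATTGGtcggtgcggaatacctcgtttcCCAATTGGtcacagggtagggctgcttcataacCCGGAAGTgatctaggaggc
Acd: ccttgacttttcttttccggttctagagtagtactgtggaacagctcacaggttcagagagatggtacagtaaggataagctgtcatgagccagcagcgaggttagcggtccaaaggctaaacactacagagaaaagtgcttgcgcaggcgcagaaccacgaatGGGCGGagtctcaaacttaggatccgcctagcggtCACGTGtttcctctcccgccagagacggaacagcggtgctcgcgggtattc
Tinf2: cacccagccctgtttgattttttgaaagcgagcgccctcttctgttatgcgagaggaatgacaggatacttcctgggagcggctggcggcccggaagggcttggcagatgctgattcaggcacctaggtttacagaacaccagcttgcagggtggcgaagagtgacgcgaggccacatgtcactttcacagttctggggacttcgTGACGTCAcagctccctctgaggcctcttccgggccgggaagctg

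Transcripts of nearly the whole set were present. Of the 10 genes 9 were detected, against 46.4% of all genes listed, and 8 averaged 10 RPKM or more, against 29.4%. Only Dkc1 passed 100 RPKM, a level reached by 4% of all genes. The median of the 10 genes was 23.6 ± 1.08 RPKM, beside 0.536 ± 0.0284 RPKM over all genes and 16.7 ± 0.151 RPKM over the 10814 detected genes. Their levels were widely spread: Dkc1 lay above 92.9% of detected genes, Tinf2 above 29.5%, and Nhp2 fell short of 1 RPKM.

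**Figure D1:**
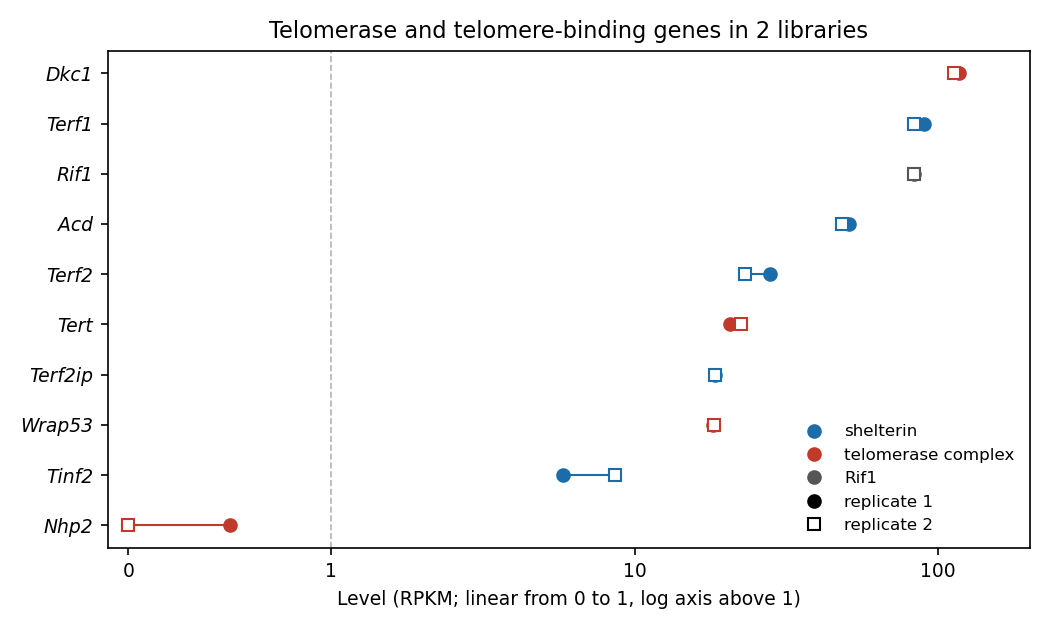
Level of each of the 10 genes (RPKM; the axis is linear from 0 to 1 and logarithmic above) in replicate 1 (filled circles) and replicate 2 (open squares), ordered by mean and coloured by complex. Nhp2 is the only gene left of the dashed line at 1 RPKM, and the replicates of Tinf2 (5.82 and 8.59 RPKM) lie visibly apart.

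Tert, the catalytic reverse transcriptase and usually the limiting protein of telomerase, was at 20.7 and 22.5 RPKM in replicates 1 and 2. This put Tert (Entrez gene 301965, rn5 chromosome 1, 33676582 to 33697344, minus strand) at a mean of 21.6 ± 1.26 RPKM, above 80.2% of all genes and 57.3% of detected genes. The transcript of the catalytic subunit was therefore at a middling level among detected genes. A gene model of 2 kb at this level would hold 124 reads in replicate 1, a counting error of 8.99%.

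Dkc1 encodes dyskerin, the pseudouridine synthase that binds and stabilises telomerase RNA and the other H/ACA RNAs, and it had the highest level of the set. Its values were 117 and 112 RPKM in replicates 1 and 2, a mean of 115 ± 3.30 RPKM. Dkc1 therefore exceeded Tert 5.66-fold in replicate 1 and 5.001-fold in replicate 2, and by 2.36 ± 0.12 on the log2(RPKM + 1) scale. The difference was far larger than the spread between replicates. Dyskerin also serves ribosomal RNA modification, so its transcript is not specific to telomerase.

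The deposited table places Dkc1 (Entrez gene 170944) on rn5 chromosome 1, 151564354 to 151578635, minus strand, whereas the RefSeq promoter window of the same gene identifier lies on chromosome X of GRCr8. Olr1768 and LOC690348, which the table lists close to Dkc1, are close to it in RefSeq too, under the names Or7r1 and Ctag2l1.

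Wrap53 encodes TCAB1, the WD-repeat protein that carries telomerase to Cajal bodies. It was at 18.1 and 18.3 RPKM in replicates 1 and 2, with a mean of 18.2 ± 0.146 RPKM. The ratio of Tert to Wrap53 was 1.14 in replicate 1 and 1.23 in replicate 2, so these telomerase genes lay close together. Wrap53 (Entrez gene 287432) lies on rn5 chromosome 10, 55914380 to 55931438, minus strand.

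Nhp2, a core H/ACA protein that partners dyskerin, was the exception in the set. It was listed at 0.502 RPKM in replicate 1 and at 0 in replicate 2, and no other gene of the set was listed at 0 in either. Of all genes, 38.2% were at 0 in both libraries. Nhp2 (Entrez gene 287273, rn5 chromosome 10, 36841676 to 36845050, plus strand) has a replicate 1 value that equals 1 read in a gene model of 666 bases, the shortest length that gives a whole number of reads. With that length, the 0 in replicate 2 allows a level of up to 1.48 RPKM (3 reads, counting error only). A value this low can be a failed estimate as well as a low level, and which of these applies was not tested. The ribosomal protein gene Rps6 was also listed at 0 in both replicates.

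The remaining H/ACA proteins did not share this value. Gar1 was at 63.8 and 57.9 RPKM in replicates 1 and 2, and Nop10 at 12.5 and 13.0 RPKM, so each lay above the level that 3 reads of Nhp2 would give. RefSeq names 5 pseudogenes of Nhp2 and 3 of Dkc1, and none of the other 8 genes. How reads that match several places were treated is not given in the sources used here, and the part of these copies in the value of Nhp2 was not tested. Nhp2l1, a related gene of the splicing and box C/D complexes, was at 12.9 ± 3.32 RPKM.

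Shelterin genes formed a graded series, and all 5 were detected. Terf1 encodes TRF1, which binds duplex telomeric repeats, and was at 89.4 and 83.5 RPKM in replicates 1 and 2. Its paralogue Terf2 encodes TRF2, which also binds the duplex and protects chromosome ends from fusion, and was at 28.0 and 23.2 RPKM. The values of the paralogues did not overlap. Terf1 exceeded Terf2 3.19-fold in replicate 1 and 3.61-fold in replicate 2, and Terf2 minus Terf1 was -1.72 ± 0.12 on the log2(RPKM + 1) scale.

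Terf1 (Entrez gene 297758) lies on rn5 chromosome 5, 2843154 to 2872363, and Terf2 (Entrez gene 361403) on chromosome 19, 50136826 to 50164563, both on the minus strand. The table lists each as the other's paralogue. A gene described as Terf2-like, LOC100909689, was listed at 0 in both replicates.

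Terf2ip encodes RAP1, which TRF2 brings to telomeres. Its values were 18.4 RPKM in each replicate (mean 18.4 ± 0.0376 RPKM), below Terf2 in both. Terf2ip minus Terf2 was -0.58 in replicate 1 and -0.32 in replicate 2 on the log2(RPKM + 1) scale, a mean of -0.45 ± 0.18, and most of the movement between replicates came from Terf2. The closeness of the Terf2ip values is below counting error, since 2 kb at this level holds 110 reads in replicate 1, an error of 9.52%. Terf2ip (Entrez gene 307861, rn5 chromosome 19, 55037928 to 55044773, plus strand) faces away from Kars, a lysyl-tRNA synthetase gene, across 159 bases. Kars was at 181 ± 4.48 RPKM, so these neighbours differed widely in level.

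Acd encodes TPP1, which recruits telomerase and tethers the single-strand binder POT1. It was at 50.7 and 48.3 RPKM in replicates 1 and 2, the second highest shelterin gene with a mean of 49.5 ± 1.73 RPKM. Acd (Entrez gene 307798, rn5 chromosome 19, 48531999 to 48534691, minus strand) overlaps RGD1562390 on the opposite strand by 39 bases. RGD1562390 was at 7.42 ± 1.09 RPKM and the closely spaced Pard6a at 1.88 ± 0.862 RPKM, both well below Acd.

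Tinf2 encodes TIN2, the hub that joins TRF1, TRF2 and TPP1, and it was the lowest shelterin gene. Its values were 5.82 and 8.59 RPKM in replicates 1 and 2, a mean of 7.21 ± 1.96 RPKM. Every other shelterin gene lay above both values, and Acd exceeded Tinf2 8.71-fold in replicate 1 and 5.62-fold in replicate 2. Tinf2 (Entrez gene 290232, rn5 chromosome 15, 38250950 to 38254058, minus strand) overlaps Gmpr2 on the opposite strand by 1102 bases, and Gmpr2 was at 11.8 ± 0.506 RPKM. The library kit does not mark strand, so reads from the shared stretch cannot be told apart and the Tinf2 value is uncertain.

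Rif1, which limits origin firing and DNA end resection through protein phosphatase 1 and is abundant in pluripotent cells, had values of 83.0 and 83.3 RPKM in replicates 1 and 2, which did not differ beyond counting error. Rif1 (Entrez gene 295602) lies on rn5 chromosome 3, 42697604 to 42746743, plus strand. Rif1 lay above Terf2ip, the gene of Rap1, with a ratio of 4.50 in replicate 1 and 4.53 in replicate 2. The level of Rif1 was close to that of Terf1.

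In order of mean level the genes ran Dkc1, Terf1, Rif1, Acd, Terf2, Tert, Terf2ip, Wrap53, Tinf2, Nhp2. Of the 9 pairs of neighbours in this order, 6 were separated by more than both the sum of their SDs and the counting error of a 2 kb model. Each SD rests on 2 values, so passing this rule is a description and no test. The smallest gap of the 6, Tert over Terf2ip, was 3.19 RPKM, against a counting error of 1.82 RPKM. Terf1 and Rif1 were 3.33 RPKM apart, less than the sum of their SDs (4.42 RPKM). Terf2 and Tert were 3.99 RPKM apart, also less than the sum of their SDs (4.69 RPKM). Terf2ip and Wrap53 were 0.219 RPKM apart, within a counting error of 1.74 RPKM. The order within these 3 pairs is therefore not resolved. Both genes of a pair were measured in the same 2 libraries, so their values are paired. Even with this pairing ignored, an exact two-sided permutation test of 2 values against 2 cannot go below p = 0.333. No pair was tested.

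As groups, the complexes overlapped in level, with members at 7.21 to 86.5 RPKM in shelterin and 0.251 to 115 RPKM in telomerase. The shelterin median was 28.0 and 23.2 RPKM in replicates 1 and 2, and the telomerase median 19.4 and 20.4 RPKM. Their difference was 0.34 ± 0.24 on the log2(RPKM + 1) scale, 0.51 in replicate 1 and 0.18 in replicate 2. From the mean over members it was -0.047, the opposite direction, so neither group can be called higher.

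**Figure D2:**
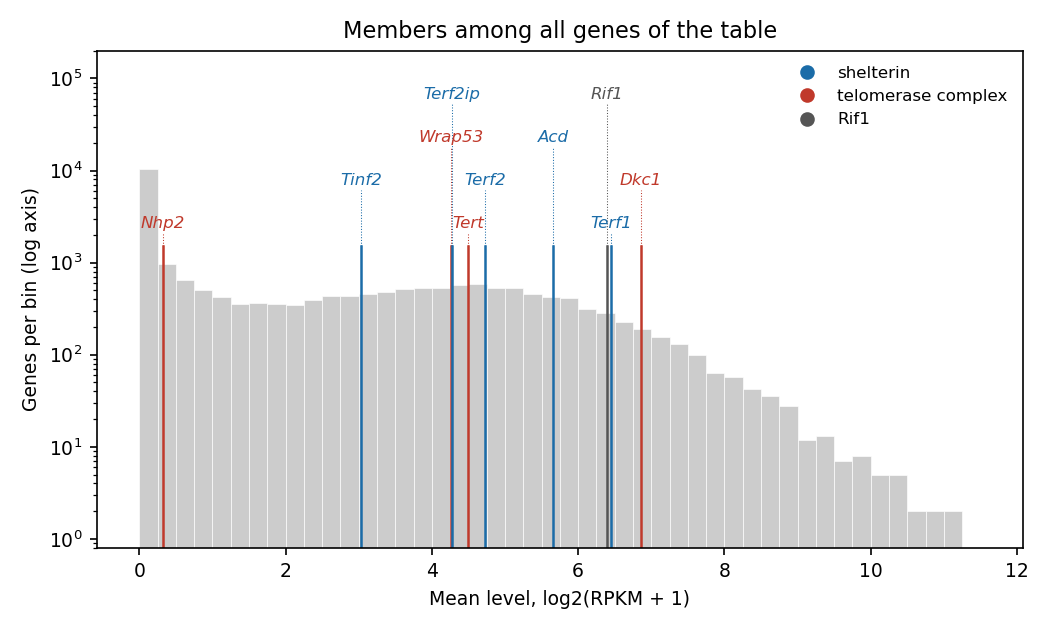
Number of genes (log axis) by mean level in log2(RPKM + 1), for all 23282 genes of the table in grey bars, with a line at the mean of each of the 10 genes coloured by complex. Apart from Nhp2 and Tinf2, the genes lie at or above the 16.7 RPKM median of detected genes.

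The replicates were compared for these genes. No gene of the 9 detected differed by over 2-fold in RPKM + 1, against 0.721% of all detected genes. With a share this low, the absence of such a gene does not set the 9 apart. Nhp2, below the detection level and not counted here, differed by -0.587 in log2(RPKM + 1). The median difference, replicate 2 minus replicate 1, was -0.00395 (log2) over the 9 genes and -0.02 over all detected genes. Replicate 2 had the higher value for 4 of the 9 and replicate 1 for 5. Of these 9, Tinf2 was the farthest apart at 0.49, followed by Terf2 at -0.26 and Tert at 0.11. Over the 1568 genes at 5 to 10 RPKM the SD of this difference was 0.29, and over the 3260 genes at 10 to 30 RPKM it was 0.20, so Tinf2 lay within 2 such SDs and Terf2 likewise. The feeder marker sum was also higher in replicate 2, and its part in the Tinf2 difference was not tested.

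**Figure D3:**
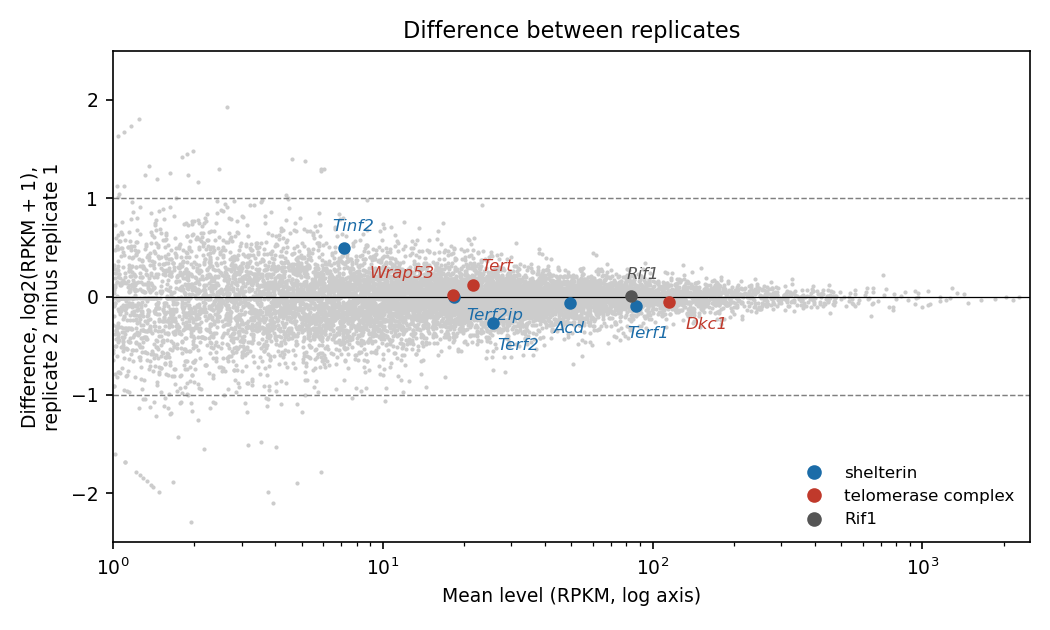
Difference between the replicates in log2(RPKM + 1), replicate 2 minus replicate 1, against mean level (RPKM, log axis) for detected genes (grey) and 9 of the 10 described genes (coloured by complex; Nhp2 is below this level). All 9 lie between the dashed lines that mark a 2-fold ratio, with Tinf2 at 0.49 and Terf2 at -0.26 farthest from 0.

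Partners of the set were examined through 5 lists, and only symbols with a row were counted. In the order below, 4 of 7, 19 of 19, 24 of 25, 14 of 20 and 7 of 13 symbols had a row. Some genes were listed under alternative names, such as Obfc1 and Stn1, or Mad2l2 and Rev7. A symbol without a row is therefore not always a missing gene. Beside the counts of each list, 46.4% of all genes listed were detected. Of the other shelterin and CST genes, CST being the complex that ends telomerase action and fills in the opposite strand, all 4 with a row were detected, their median being 26.7 ± 0.258 RPKM. Ctc1, the large CST subunit, was at 36.0 ± 1.47 RPKM and Pot1, the shelterin protein on single-stranded repeats, at 29.8 ± 0.191 RPKM. Pot1b was at 4.997 and 5.05 RPKM, well below Pot1. The level of Pot1 thus lay near that of Terf2 and below that of its binding partner Acd.

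Genes for H/ACA and telomerase assembly were the highest list, with all 19 detected and a median of 63.5 ± 4.79 RPKM. Cct5 and Cct2, subunits of the chaperonin that folds TCAB1, were at 785 ± 8.58 and 411 ± 4.66 RPKM. Tep1, a protein found with telomerase RNA and vault particles, was lowest at 1.21 ± 0.155 RPKM. Many genes of this list serve ribosome production and protein folding generally.

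Of 24 genes for telomere replication, end processing and recombination, 23 were detected, the median being 22.7 ± 1.56 RPKM. The fork protection gene Timeless was at 82.7 ± 3.23 RPKM and the replication protein A gene Rpa2 at 80.7 ± 4.27 RPKM. Ercc4, an endonuclease subunit, was lowest, at 0.526 and 0.206 RPKM in replicates 1 and 2. Its partner Ercc1 was at 13.2 ± 2.30 RPKM.

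Among 14 tankyrase and other regulator genes, 12 were detected, the median being 25.8 ± 0.547 RPKM. The RNA-binding protein genes Hnrnpa2b1 (335 ± 23.7 RPKM) and Hnrnpa1 (94.4 ± 14.8 RPKM) were highest, and Fbxo4 and Tnks2 were listed at 0 in both replicates. Tnks, the tankyrase that releases TRF1 from telomeres, was at 34.3 ± 1.06 RPKM.

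All 7 partners of Rif1 with a row were detected, at a median of 26.2 ± 0.162 RPKM. The protein phosphatase 1 catalytic genes Ppp1ca (338 ± 10.03 RPKM) and Ppp1cc (188 ± 4.65 RPKM) were highest. Dbf4, the activator of the Cdc7 kinase that Rif1 opposes, was lowest at 6.39 ± 0.850 RPKM. Over all 5 lists, 65 of 68 genes with a row were detected, against 46.4% of all genes listed. Their median was 28.2 RPKM in each replicate.

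**Figure D4:**
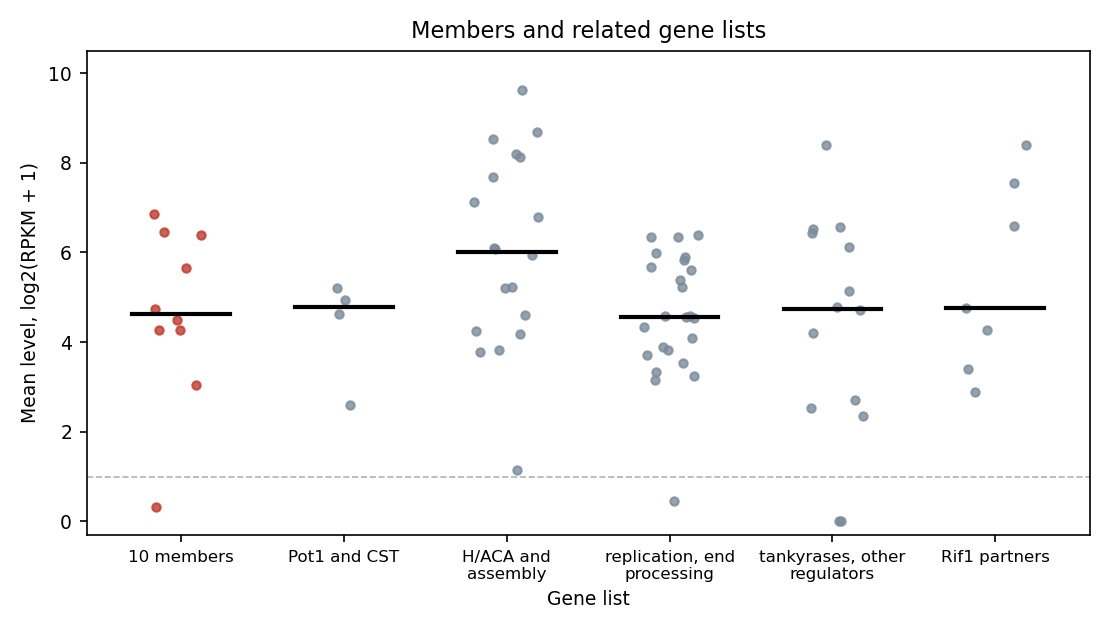
Mean level in log2(RPKM + 1) of each of the 10 genes (red) and of the genes in 5 related lists (grey), with a black bar at each list's median and a dashed line at 1 RPKM. The H/ACA and assembly list has the highest median, 63.5 RPKM, and the medians of the other lists lie between 22.7 and 26.7 RPKM, near the 23.6 RPKM of the 10 genes.

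The promoter table used here gave windows for 9 of the 10 genes, all but Terf1. Their median held 15 CpG dinucleotides and 56% G and C, against 5 and 51.2% over all 33469 windows of the same length. Dkc1, the gene with the highest level, also had the most CpG dinucleotides, 27, more than 92.3% of all windows. Nhp2, whose listed level was the lowest, had 13, more than 70.6% of windows, and Tinf2 also had 13. The windows of Tert and Wrap53, with 4 and 16 CpG dinucleotides, held no match to any motif searched. The Tert window begins 539 bases inside the gene's own RefSeq span, so it describes the start of the transcript chosen there. The windows of Terf2 (308 bases), Wrap53 (268 bases), Acd (71 bases) and Rif1 (14 bases) also begin inside their gene's span.

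The ETS element was present in the windows of Dkc1 and Nhp2, and in 3.10% of all windows. This element had 2 copies in Dkc1, 159 and 60 bases before the start, and 1 in Nhp2, 20 bases before. The E-box was present in Dkc1 and Acd alone of the 9, and in 5.59% of all windows. The GC box was in 6 of the 9 windows and 30.5% of all, and the CCAAT box in 4 of 9 and 34.0%. The cAMP response element was in Tinf2 alone of the 9 and in 1.59% of all windows. A YY1 element, GCCATNTTG on either strand, was in the Terf2ip window and in 1.50% of all. These matches describe the letters of the windows and not binding. Because the motifs were chosen after the sequences had been seen, the shares over all windows are no test of enrichment.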

How the data were processed

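RNA sequencing of 2 libraries was analysed from 1 table of RPKM values made and deposited by the authors, whose columns carry the sample titles. The submitters' processing notes name CASAVA 1.8, TopHat 1.4.0 and the rn5 (Rnor_5.0) build; the counting tool and the handling of multiply mapping reads are not stated there. Rows of 1 Entrez identifier were summed (23716 rows, 23282 genes). RPKM is no count, so no count model was fitted, and 1 group allows no test between groups. Results are given per replicate and as mean ± SD (n = 2). Differences are on log2(RPKM + 1), a scale that compresses changes of low genes. Read totals are those that turned the most rows with a locus under 6000 bp into whole reads (527 of 2700 and 525 of 2688, relative tolerance 3e-07). The search for read totals and the difference between replicates were tried on simulated data, and the other steps were not. In the simulation every locus under 6000 bp equalled its gene model, an easier case for the read totals than these data.

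The 10 genes and the lists were chosen with earlier results of these data known. Named are all 10 genes, the 2 highest and the lowest of each list, and the highest and lowest markers. Gar1, Nop10, Ercc1, Tnks, Rps6 and the neighbouring or related genes were named after their values were seen. List symbols without a row were not analysed here. Alternatives were each replicate alone, detection at 0.3 or 3 RPKM, a pseudocount of 0.1, libraries rescaled to sum to 1000000, the highest row of a gene, means over members, no minimum, and a centred replicate 2. Software was Python 3.11.15, numpy 2.4.6, pandas 2.3.3 and matplotlib 3.10.9. Sequences and pseudogene names came from RefSeq tables of GRCr8, in which all 10 genes matched the gene table by identifier and 9 the promoter table.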

Additional observations from a re-analysis of the deposited data

How the results depend on the processing

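With 2 replicates, leaving out either always moves a mean by less than its SD, and each of the 10 genes has 1 row, so single replicates and the highest row of a gene say nothing on stability. The counts of detected genes stayed within 1.5 times under every alternative run for them. No paired contrast between conditions was possible because both libraries form 1 group, and differences between genes were taken within each library. Rescaling each library to a sum of 1000000 put the medians at 53.9 (10 genes), 58.5 (shelterin) and 45.5 (telomerase), which is a change of unit. List means gave 42.5, 37.4 and 38.7 RPKM, and a difference of -0.047 between shelterin and telomerase (log2). Leaving out Nhp2, chosen after the data were seen, gave medians of 25.6 RPKM for the other 9 genes and 21.6 RPKM for telomerase. The median difference between replicates, -0.00395 in the report, was 0.00999 after rescaling and 0.0130 after centring replicate 2 on the median ratio. With either replicate alone, Dkc1 minus Tert was 2.27 or 2.44. Depth limits the lower levels: a 2 kb gene model at the level of Tinf2 holds 34.8 reads in replicate 1, a counting error of 16.95%.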

Other observations

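Of the 212 genes for which RefSeq names 5 or more pseudogenes, as it does for Nhp2, 197 were detected (92.9%), and 8 were listed at 0 in both replicates. Of the 21618 genes with no named pseudogene, 43.3% were detected. The classes also differ in level, with medians of 61.2 and 0.317 RPKM, so these shares do not bear on the value of Nhp2.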
